A study of Mus musculus with 4 samples.

Results

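Interferon response genes were examined for N6-methyladenosine (m6A), the most common internal mark of mRNA, in splenic natural killer (NK) cells of wild-type C57BL/6 mice. The members were 43 genes listed by symbol, namely the transcription factors that carry interferon signals and a set of genes that interferon turns on. Each symbol was matched to 1 Ensembl gene of the GRCm38 annotation, and every distinct peak assigned to such a gene was taken. This gave 66 of 20727 peaks, in 39 of the 43 genes, while 12351 genes had a peak in the list as a whole.

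The study used methylated RNA immunoprecipitation sequencing (MeRIP-seq), in which short mRNA fragments are pulled down with an antibody against m6A and compared with the RNA before the pull-down. There were 2 m6A immunoprecipitates (IP) and 2 input RNA libraries. The NK cells of both groups had been expanded in the animals with a plasmid that expresses the cytokine IL-15 and were then sorted, so the list describes IL-15-expanded cells, and no sample without IL-15 or without the m6A writer METTL3 was analysed here. Whether each library came from 1 animal or from several is not given in the sources used here.

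The deposited list gives each peak 1 fold enrichment (IP reads over input reads) and 1 peak-calling p-value over all 4 libraries. It has no value per sample, so depth and the error between replicates are unknown and no value below carries a replicate error. Strong peaks are those whose fold enrichment reached 5. A fold enrichment compares IP with input within the same RNA, so it is not an expression level.

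Interferons are cytokines of antiviral defence. Type I interferons act through their receptor, the kinases JAK1 and TYK2 and a complex that contains STAT2 and IRF9 and binds the promoters of interferon-stimulated genes, and IRF1 is a main factor of the interferon-γ response. NK cells respond to type I interferon with higher cytotoxicity and are themselves a main source of interferon-γ. m6A is written by METTL3 with METTL14, mostly within the consensus DRACH (D stands for any base but C, R for a purine and H for any base but G), is frequent near stop codons and in 3′ UTRs, and is known to affect the decay and translation of mRNA.

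The sequences around a DRACH site are shown for the most significant peak in each of 8 role groups, among those with a place on a coding transcript. Each line gives the site nearest to the centre of the peak with 11 nt on either side, and capitals mark that site. The Gbp3 window holds a further DRACH match in lower case. Sequences are in the sense of the transcript and in DNA letters of the GENCODE M21 transcripts (GRCm38). The files do not resolve which adenosine was methylated, so these are candidate sites.
Irf8, chr8:120756416-120756442, plus strand: gcctgctcaacAGACAgggtcgacaga
Zbp1, chr2:173206645-173206671, minus strand: gccgggaggggGGACActgctgaatgc
Oas3, chr5:120753207-120753233, minus strand: aagccaataagAAACAtccctccatgg
Ifi27, chr12:103440016-103440042, plus strand: gccagtgtcatGAACAtctgtgagagt
Isg15, chr4:156199512-156199538, minus strand: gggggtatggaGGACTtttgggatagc
Bst2, chr8:71535794-71535820, minus strand: gtcacgaagctGAACCaggagctggag
Gbp3, chr3:142573032-142573058, plus strand: gtaagtaaatcAAACAgaaacatggcc
Parp14, chr16:35833077-35833103, minus strand: ggcactaaggaTGACCttacgaagatg
The windows of Irf8, Zbp1, Oas3, Isg15, Gbp3 and Parp14 lie in the 3′ UTR and those of Ifi27 and Bst2 in the coding sequence. The site of Isg15 is GGACT and lies 59 nt past the stop codon, and that of Zbp1 is GGACA, 559 nt past it. These are the pair of genes with the highest fold enrichments among the members.

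A peak was found in 39 of 43 interferon response genes (90.7%, 95% Wilson interval 78.4 to 96.3), while 46.3% of all annotated genes with a protein-coding transcript had a peak. With a peak-calling p-value under 0.001 the numbers were 29 of 43 (67.4%, 52.5 to 79.5) and 33.9% of coding genes. Expression in the input was not analysed here, and a gene without RNA can have no peak. Among the 39 genes, 23 had 1 peak, 8 had 2, 6 had 3 and the remaining pair had more, with 5 at Irf3 and 4 at Samhd1. More than 1 peak was found in 16 of the 39 (41.0%), beside 40.2% of all genes with a peak.

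The fold enrichments of most of these peaks were low. The median was 1.775 (interquartile range 1.44 to 2.84, lowest 1.18, highest 55.0), beside 2.66 for all peaks and 2.37 for peaks of genes with a protein-coding transcript. In 40 of the 66 peaks the fold enrichment was under 2. It was at least 2 in the other 26 (39.4%, 28.5 to 51.5), beside 63.9% of all peaks and 60.3% of peaks of genes with a protein-coding transcript. A strong peak was found in 9 of the 39 genes (23.1%, 12.6 to 38.3), beside 49.6% of all genes with a peak and 43.4% of such genes with a protein-coding transcript. Protein-coding exons of the assigned gene were overlapped by 62 of the 66 peaks (93.9%, 85.4 to 97.6), beside 79.4% of all peaks and 90.3% of peaks of genes with a protein-coding transcript. By peak the share of strong ones was 10 of 66 (15.2%, 8.44 to 25.7), beside 34.6% of all peaks and 29.5% of peaks of genes with a protein-coding transcript. Since the genes were chosen with earlier results of these data known, no test of these shares was made.

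Significance was close to that of the whole list. A p-value under 0.001 was given to 44 of 66 peaks (66.7%, 54.7 to 76.8), beside 61.5% of all peaks, and the median log10 p was -4.835, beside -4.1. The most significant peak of a member, at Irf8, had a log10 p of -140 and ranked 329 among the 20727 peaks. It was followed by Bst2 (-83.4), Ifi27 (-52.2), Ifitm3 (-48.2) and Irf1 (-47.0). Of these 5 peaks that at Bst2 was strong.

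**Figure D1:**
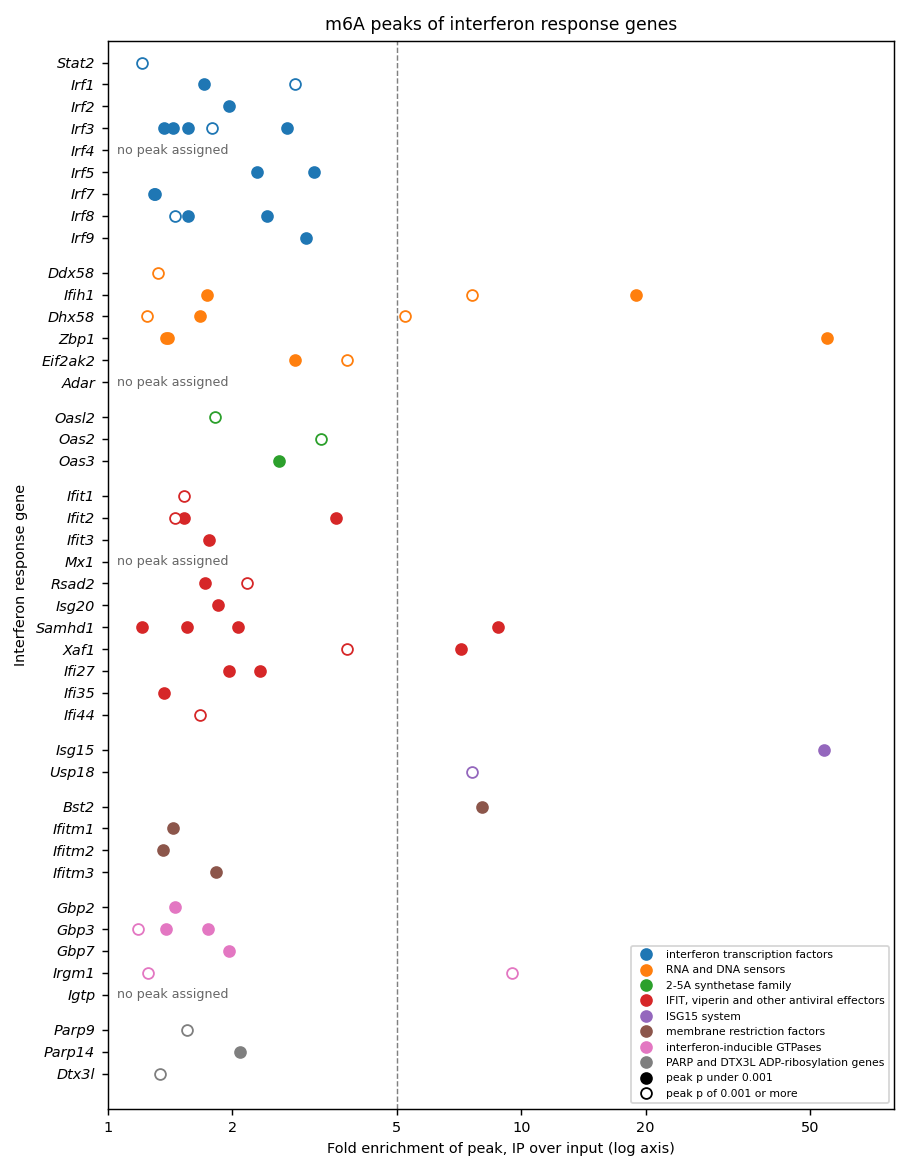
Fold enrichment of every peak (IP over input, log axis) for the 43 interferon response genes, grouped by role. Filled points have a peak-calling p-value under 0.001, open points do not, and the dashed line marks a fold enrichment of 5. Most points lie left of the line, and Zbp1 (55.0) and Isg15 (54.1) lie farthest to the right.

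The factors that carry the signal to the nucleus had low fold enrichments throughout. Peaks were assigned to 8 of 9, with 17 peaks between 1.21 and 3.16 and 0 strong peaks. Stat2, a partner of IRF9 in the type I interferon response, had a single weak peak in the 3′ UTR (fold enrichment 1.21, log10 p -1.81). Irf9, the DNA-binding subunit of the same complex, had a single peak (fold enrichment 3.01, log10 p -34.5), centred 819 nt past the stop codon and running to the last base of the transcript. Stat2 thus had the lowest fold enrichment of the group, and the value of Irf9 was exceeded by 1 Irf5 peak.

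Irf8 (ENSMUSG00000041515, chromosome 8, plus strand), a factor known from myeloid cells and B cells that also acts in NK cells, had 3 peaks. The first (120736358 to 120738736) began at the first base of the transcript, with 1.45-fold enrichment (log10 p -2.58). The second (120754436 to 120755528) was centred 54 nt past the stop codon, with 1.56 and -45.3. The third (120756156 to 120756694) was centred 1250 nt past the stop codon in exon 9 of 9, with 2.43 and -140, and it contains the window printed for Irf8. Fold enrichment and significance were thus highest at the 3′ end of the transcript, although the stop codon itself lay in a peak with a lower fold enrichment.

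Irf3, the factor that starts interferon transcription after RNA or DNA sensing, had the most peaks of any member. Irf3 (ENSMUSG00000003184, chromosome 7, plus strand) carried 5, with fold enrichments from 1.37 to 2.71. The highest value belonged to the peak over the stop codon (45001665 to 45002489), which had a log10 p of -43.0 and a centre 78 nt before the stop codon in exon 8 of 8. One further peak (44997648 to 44997887, 1.56, log10 p -6.98) was centred in the 5′ UTR, and peaks in exon 2 (44998789 to 44999953, 1.44, log10 p -6.11) and exon 6 (45000818 to 45001087, 1.37, log10 p -7.15) were centred in the coding sequence. The fifth (44998609 to 44998669, 1.79, log10 p -2.76) lay on another isoform, and 45 nt of it were shared with an exon of Bcl2l12, which runs on the opposite strand. The peaks thus ranged from the first to the last exon of Irf3, with the highest fold enrichment at its stop codon.

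Irf5, an inducer of inflammatory cytokines best known from myeloid cells and B cells, had the highest fold enrichment of the group, but not on its own coding exons. Its value was 3.16 (log10 p -11.6) for the peak at 29540827 to 29541187 on chromosome 6. This peak overlapped 42 nt of Irf5 (ENSMUSG00000029771) exons, 0 nt of a protein-coding exon of that gene and 361 nt of exons of Tnpo3 on the opposite strand. The other Irf5 peak (29536567 to 29537316) was centred 156 nt past the stop codon, with 2.29 and -38.2. Without strand in the list, the reads of the first peak cannot be told apart between Irf5 and Tnpo3.

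The peaks of Irf1, Irf2 and Irf7 had fold enrichments under 3. Irf1, which carries much of the interferon-γ response, had a peak of 449 nt in the 3′ UTR (1.71, log10 p -47.0) and a weak one on another coding isoform (2.84, log10 p -1.42). Irf2, its antagonist, had a peak of 390 nt in the 3′ UTR (1.96, log10 p -13.0). Irf7, the amplifier of type I interferon transcription, had peaks with fold enrichments of 1.3 and 1.29, the first centred 80 nt before the stop codon. Irf4, a factor of activated lymphocytes, was assigned 0 peaks, and no peak of another gene overlapped its exons.

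Among markers of the cell types a spleen sort could hold, a peak was found in 8 of 8 NK cell, 3 of 5 T cell and 4 of 5 myeloid or dendritic cell genes. Of all annotated genes with a protein-coding transcript, 46.3% had a peak, and 43.4% of those with a peak had a strong one. The most significant peak of a myeloid marker had a log10 p of -322, at Csf1r, and that of an NK cell marker -316. Strong peaks were present in each of these 3 T cell genes, with fold enrichments of up to 31.6 at Cd3g (most significant log10 p -46.8), 30.3 at Cd3e (log10 p -6.35) and 5.69 at Cd3d (most significant log10 p -9.43), whereas Cd4 and Cd8a had 0 peaks. The B cell genes Cd79a (7.59, log10 p -9.11) and Cd79b (2.69, log10 p -27.6) each had 1 peak. Siglech, a plasmacytoid dendritic cell gene, had 0. The part of other cell types in the peaks of Irf5 and Irf8 was not tested.

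The nucleic acid sensors spanned the widest range of fold enrichments. A peak was found in 5 of 6 genes, 3 of them with a strong one, and the 12 peaks lay between 1.24 and 55.0. Zbp1 (ENSMUSG00000027514, chromosome 2, minus strand), a sensor of Z-form nucleic acids that can start necroptosis, held the highest value of all members. That peak (173206612 to 173206732, 121 nt, log10 p -12.1) was enriched 55.0-fold, was centred 545 nt past the stop codon in exon 8 of 8 and reached the last base of the transcript. It overlapped 1 of 2 protein-coding Zbp1 transcripts and held 1 DRACH site, the GGACA shown for Zbp1. The other Zbp1 peaks had fold enrichments of 1.4 (173213770 to 173215716, log10 p -8.77) and 1.38 (173218774 to 173218923, log10 p -4.27), so a single Zbp1 peak was strong.

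The cytosolic RNA helicases each had a weakly enriched peak at or past the stop codon. Ddx58, which encodes RIG-I, had a peak with 1.32 and a log10 p of -2.93 in the 3′ UTR. Ifih1, which encodes MDA5, had a peak centred 47 nt past the stop codon (1.74, log10 p -3.91) and a strong one over the last 91 nt of the transcript (7.59, log10 p -1.42). Its remaining peak was enriched 19.0-fold (log10 p -3.75) but overlapped 0 nt of a protein-coding Ifih1 exon.

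Dhx58, which encodes LGP2, a regulator of the other helicases, had peaks on either side of its stop codon, with 1.67 (log10 p -3.99) and 1.24 (log10 p -1.73). A further peak assigned to it (5.22, log10 p -2.63) overlapped 0 nt of its exons and 119 nt of Dhx58os, an antisense RNA on the opposite strand. Eif2ak2, the kinase PKR that stops translation when it binds double-stranded RNA, had peaks of 2.84 (log10 p -4.34) in the 3′ UTR and 3.79 (log10 p -1.31) in exon 4. Strong peaks of the helicases therefore either missed the protein-coding exons or had a p-value that was not under 0.001.

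Adar, the editor that turns adenosine into inosine in double-stranded RNA and so keeps MDA5 silent, was assigned 0 peaks. However, 5 peaks assigned to Chrnb2, a nicotinic receptor gene on the opposite strand, lay on exon 15 of 15 of Adar (ENSMUSG00000027951, chromosome 3). They formed 3 separate stretches, with fold enrichments from 1.44 to 1.68. The most significant (89750990 to 89751289, log10 p -5.58) overlapped 300 nt of Adar exons and 0 nt of Chrnb2 exons and was centred 36 nt before the Adar stop codon, whereas the remaining 4 overlapped exons of both genes. The DRACH site nearest to the centre of that peak, shown because the peak covers the Adar stop codon under another gene's name, is the following.
Adar, chr3:89751131-89751157, plus strand: caggaggaaaaGAACTtttacctctgt
By position, Adar therefore had a peak at its stop codon that the assignment to genes did not show.

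The 2-5A synthetases each had a single assigned peak, and 0 of these were strong. OAS2 and OAS3 make the 2-5A that activates RNase L, and OASL2 is a related protein. Oas2 (ENSMUSG00000032690, chromosome 5) had the highest fold enrichment among these peaks, 3.28 with a log10 p of -2.94, at 120735573 to 120736114 and centred in the coding sequence in exon 8 of 12. A further peak (120745840 to 120749584), assigned to Gm43068 on the opposite strand, overlapped 389 nt of exons of Oas2 coding transcripts and 1273 nt of Gm43068 exons, with a higher value of 13.3 (log10 p -2.5). Without strand its reads cannot be told apart between both genes. Oas3 (ENSMUSG00000032661, chromosome 5) had the most significant peak, at 120753098 to 120753338, with 2.6 and -4.59, centred 1146 nt past the stop codon. Oasl2 had a peak of 1.82 (log10 p -2.73) in the last coding exon. Of the 3 genes, Oas3 had a peak with a p-value under 0.001.

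Among the further antiviral effectors a peak was found in 10 of 11 genes, and 2 of them, Samhd1 and Xaf1, had a strong one. The median of the 18 peaks was 1.805, and 13 of them were centred in the 3′ UTR. Mx1, a GTPase that blocks influenza viruses and is defective in C57BL/6 mice, was assigned 0 peaks, and no peak of another gene overlapped its exons.

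Samhd1 (ENSMUSG00000027639, chromosome 2, minus strand), which degrades the nucleotides that viral reverse transcription needs, had 4 peaks, each with a p-value under 0.001. The strong one (157101313 to 157103799, log10 p -37.9) was enriched 8.77-fold and overlapped all 4 coding transcripts. On the longest of these it covered 138 nt and was centred 174 nt before the stop codon, but on the coding transcript with most shared bases it was centred in the 3′ UTR, 1245 nt past the stop codon. The other peaks had 1.55 (157099453 to 157099663, log10 p -17.5), 1.21 (157098223 to 157098373, log10 p -4.95) and 2.06 (157097533 to 157097923, log10 p -17.6). The region given to the strong Samhd1 peak therefore depends on the isoform chosen.

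Ifi27 (ENSMUSG00000064215, chromosome 12, plus strand), a short interferon-stimulated gene, had the most significant peak of these effectors. That peak (103437435 to 103440239, log10 p -52.2) was enriched 2.33-fold and covered 58.1% of the longest coding transcript, ending at its last base. A second peak (103434211 to 103436810, 1.96, log10 p -27.1) covered a further 37.3% from the first base on. The Ifi27 peaks are thus as long as most of the mRNA and do not point to a position.

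Xaf1, which promotes apoptosis by opposing XIAP, had a strong peak over its stop codon (72308749 to 72312479 on chromosome 11, 7.16, log10 p -16.6) and a weak one further on (3.79, log10 p -1.64). The IFIT proteins bind foreign RNA ends, and Ifit1 (1.53), Ifit2 (1.53 and 1.45) and Ifit3 (1.76, log10 p -11.1) had 3′ UTR peaks of like fold enrichment. Ifit2 had a further peak of 3.56 (log10 p -4.7) in the 5′ UTR. Ifit3 has a near-identical neighbour, Ifit3b, which had 0 peaks, and how the authors counted reads that match both is not given in the sources used here.

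The other effectors had peaks centred in the 3′ UTR. Rsad2, which encodes viperin, had peaks 2346 and 2585 nt past its stop codon (1.72 and 2.17). Isg20, an exonuclease, had a peak 31 nt past it (1.85, log10 p -6.29), Ifi35 a peak 8 nt past it (1.37, log10 p -4.72) and Ifi44 a peak 1308 nt past it (1.67, log10 p -2.11).

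The ISG15 system had a strong peak in 2 of 2 genes. ISG15 is a ubiquitin-like protein that is attached to other proteins in the interferon response, and USP18 removes it and also dampens the type I interferon receptor. Isg15 (ENSMUSG00000035692, chromosome 4, minus strand) had a single peak (156199424 to 156199685, 262 nt) that was enriched 54.1-fold (log10 p -23.5). It covered 34.7% of the transcript, was centred 29 nt past the stop codon in exon 2 of 2 and held 3 DRACH sites, among them the GGACT shown for Isg15. Of the members with a strong peak, Isg15 is the one whose peak was centred within 100 nt of the stop codon. That peak also ran to the last base of the 160 nt 3′ UTR. Within 200 nt, on the longest coding transcripts, lay also the centres of the strong peaks of Xaf1 (123 nt past), Bst2 (152 nt before) and Samhd1 (174 nt before). Usp18 had its peak at the other end of the mRNA, over the first 151 nt of the longest coding transcript, with 7.59 and a log10 p of -2.94.

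**Figure D2:**
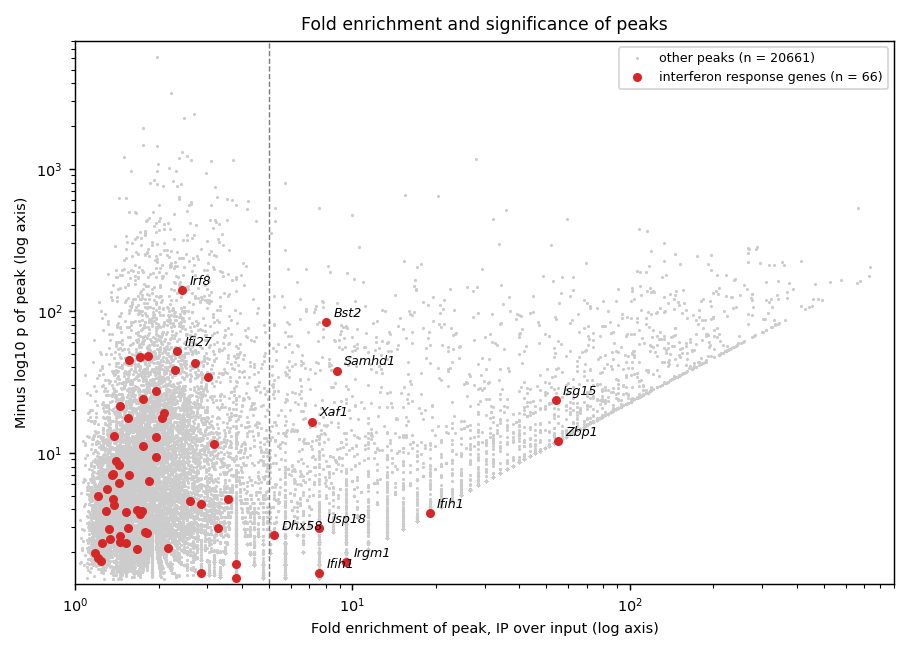
Fold enrichment (IP over input, log axis) against minus log10 of the peak-calling p-value (log axis) for the 66 peaks of interferon response genes (red) and all other peaks (grey), with the dashed line at a fold enrichment of 5. Named are the strong peaks and the most significant ones. Irf8 (2.43) is the most significant and not strong, and Bst2 (8.04) and Samhd1 (8.77) are strong and significant.

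The strong peaks fell into 3 kinds. First, Bst2, Samhd1, Isg15, Xaf1 and Zbp1 had a strong peak over a protein-coding exon with a log10 p from -83.4 to -12.1. Second, Usp18 and the 3′-most peak of Ifih1 lay on coding exons, with p-values that were not under 0.001. Last, 3 strong peaks, at Ifih1, Dhx58 and Irgm1, overlapped 0 nt of a protein-coding exon of their gene. Over protein-coding exons, 7 of 39 genes (17.9%, 8.98 to 32.7) thus had a strong peak, beside 38.7% of all genes with such a peak. Among all members, the values nearest to the threshold were 5.22 at Dhx58 above it and 3.79 at Xaf1 and Eif2ak2 below it.

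Some strong peaks shared their exact pair of fold enrichment and log10 p with other peaks. The pair of the Irgm1 peak (9.48 and -1.69) stood at 845 peaks of the list, that of the Ifih1 peak without a coding exon (19.0 and -3.75) at 138 and that of Zbp1 (55.0 and -12.1) at 22. The pairs of Isg15, Bst2, Samhd1, Xaf1 and Dhx58 each occurred 1 time. Read counts per peak were not analysed here.

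The membrane restriction factors had a peak in 4 of 4 genes, each with a p-value under 0.001. Bst2 (ENSMUSG00000046718, chromosome 8, minus strand) encodes tetherin, which holds budding virions on the cell. Its single peak (71534255 to 71537456, log10 p -83.4) was enriched 8.04-fold, covered 100% of the 792 nt transcript and held 17 DRACH sites. It was thus the most significant strong peak of any member, and its position within the mRNA is not resolved.

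The IFITM proteins, which block fusion of viruses in endosomes, had lower fold enrichments. Ifitm3 had 1.83 (log10 p -48.2) over 95.7% of its transcript, Ifitm1 had 1.44 (log10 p -8.18) with the centre 8 nt before the stop codon and Ifitm2 had 1.36 (log10 p -6.94) with the centre 88 nt past it. The 3 genes are close paralogs, and reads that fit more than 1 of them may have been split between them. A further pair of peaks over Ifitm2 coding exons was assigned to the overlapping gene Gm45717, with 1.17 and 1.27.

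The interferon-inducible GTPases, which attack the vacuoles of intracellular pathogens, had a peak in 4 of 5 genes. The median of their 7 peaks was 1.45. Gbp3 (ENSMUSG00000028268, chromosome 3, plus strand) had the most significant peak (142572850 to 142573209, 1.75, log10 p -24.0), centred 336 nt past the stop codon and ending at the last base, and peaks of 1.38 (142570984 to 142572610, log10 p -13.1) and 1.18 (142572700 to 142572760, log10 p -1.96) before it. Gbp2 (1.45, log10 p -21.3) and Gbp7 (1.96, log10 p -9.39) also had a peak that ended at the last base of the transcript. These GBP peaks therefore lay at like places, at the 3′ end, whether the 3′ UTR was short (515 nt in Gbp2 and Gbp3) or long (3575 nt in Gbp7).

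Irgm1 (ENSMUSG00000046879, chromosome 11, minus strand) had a weak peak in the 3′ UTR (48865536 to 48865656, 1.25, log10 p -2.31) and the highest fold enrichment of the group in a peak that missed its coding exons (48871473 to 48871683, 9.48, log10 p -1.69). Igtp was assigned 0 peaks. The 4 peaks assigned to its neighbour Irgm2 lay on exon 3 of 3 of Igtp (ENSMUSG00000078853, chromosome 11) and on 0 nt of an Irgm2 exon in the annotation used here. Their fold enrichments were 1.28, 1.11, 1.17 and 1.53 in order along the gene, the first 3 centred in the coding sequence and the fourth (58207324 to 58207591, log10 p -10.7) 181 nt past the Igtp stop codon. A site in the last of these, the most significant peak over Igtp, is shown because the peak carries the name of another gene.
Igtp, chr11:58207539-58207565, plus strand: atgtttaaataAAACTcttttccctcc
By position, peaks over exons were therefore found for 41 of the 43 members, with Irf4 and Mx1 as the exceptions. This count was made after the assignments had been seen. The share of all coding genes by this wider rule was not computed, so the count has no background to be read against.

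The genes of the PARP and DTX3L group each had a single 3′ UTR peak and 0 strong peaks. PARP9 and DTX3L form a complex that ubiquitinates and ADP-ribosylates targets in the interferon response, and PARP14 is a mono-ADP-ribosyltransferase. Parp14 (ENSMUSG00000034422, chromosome 16, minus strand) had the highest fold enrichment and significance (35832904 to 35833203, 2.09, log10 p -19.0), centred 1592 nt past the stop codon in exon 17 of 17. Parp9 (1.55, log10 p -2.96) and Dtx3l (1.34, log10 p -2.49) had p-values that were not under 0.001. These genes lie on opposite strands and share 458 nt of annotated exons, but both peaks lay outside the shared part.

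**Figure D3:**
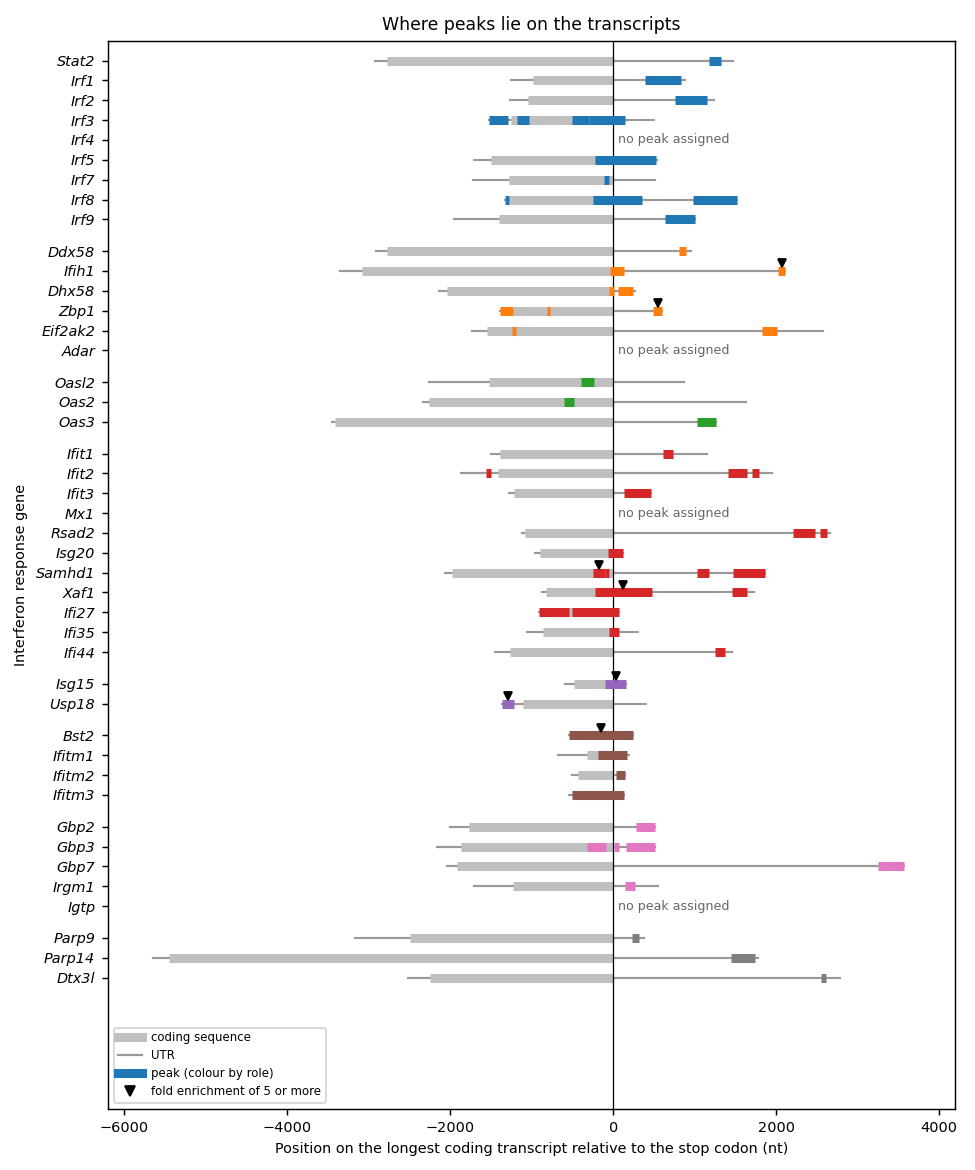
Position of peaks (coloured by role) on the longest coding transcript of each gene, in nt relative to the stop codon at 0, with the coding sequence as a thick grey bar, UTRs as a thin line and a triangle over strong peaks. Peaks at Bst2 and Ifitm3 cover nearly the whole transcript, those of Gbp7 and Rsad2 lie far into the 3′ UTR, and Usp18 has its peak at the 5′ end.

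The peaks were then placed on the longest coding transcript of their gene by the centre of the exonic part, which was possible for 59 of 66. Of these, 37 (62.7%, 49.95 to 73.9) were centred in the 3′ UTR, beside 56.5% of all placed peaks. The coding sequence held 17 (28.8%, 18.8 to 41.4), beside 33.6%, and the 5′ UTR held 5 (8.47%, 3.67 to 18.4), beside 9.94%. By this placement each share of all peaks lay within the interval of the members. By gene, a peak centred in the 3′ UTR was found in 30 of the 39. The share of all genes by that count was not computed, and the shares above are by peak. In the authors' region column 48 of 66 peaks (72.7%, 61.0 to 82.0) carried the 3′ UTR label, beside 53.3% of all peaks and 59.4% of peaks of genes with a protein-coding transcript, so by that column the share of all peaks lay below the interval of the members.

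The centre was within 200 nt of the stop codon in 18 of 59 peaks (30.5%, 20.3 to 43.1), beside 22.3% of all placed peaks. Among the 41 placed peaks with a p-value under 0.001, 16 (39.0%, 25.7 to 54.3) lay there, beside 26.2% of all placed peaks with such a p-value. The last exon held 45 centres (76.3%, 64.0 to 85.3), beside 66.7%, and 16 peaks (27.1%, 17.4 to 39.6) ran to the last base of the transcript, beside 22.3%. Centres in the 3′ UTR lay a median of 819 nt past the stop codon (interquartile range 156 to 1547), beside 716 nt for all peaks. Positions thus varied from 8 nt past the stop codon at Ifi35 to 3411 nt past it at Gbp7.

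The median fold enrichment of the members was similar in each region. It was 1.74 in 37 peaks of the 3′ UTR, 1.82 in 17 of the coding sequence and 1.56 in 5 of the 5′ UTR, and the corresponding medians of all placed peaks were 2.02, 2.53 and 4.0. Among the 16 genes with more than 1 peak, the peak with the highest fold enrichment was also the most significant in 9. The share among all genes with more than 1 peak was not computed.

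**Figure D4:**
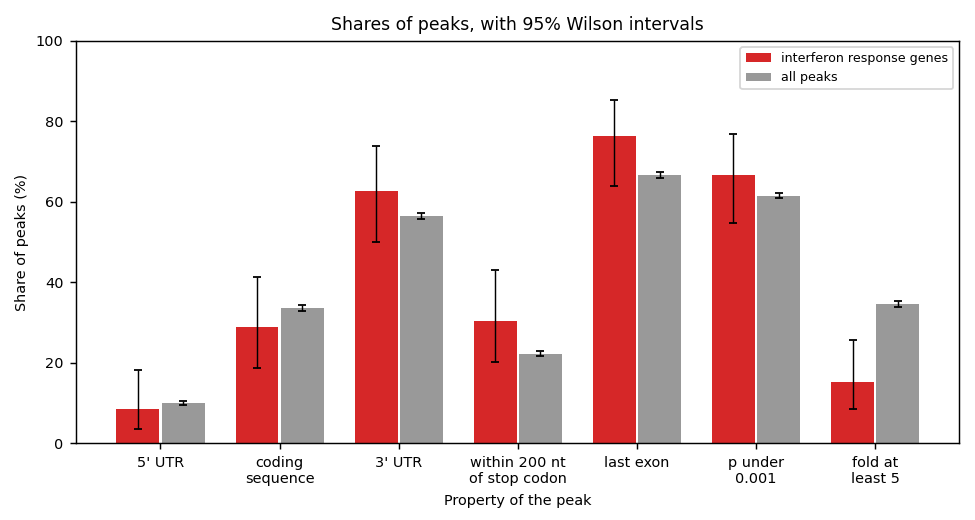
Shares of peaks (%) with each property for interferon response genes (red) and for all peaks (grey), with 95% Wilson intervals that cover counting error. The first 5 properties refer to peaks placed on a coding transcript. Of the properties drawn, strong peaks are the one in which the shares lie farthest apart (15.2% and 34.6%). Among peaks of genes with a protein-coding transcript, which are not drawn, 29.5% were strong.

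DRACH sites were counted on the sense strand within the exonic part of the placed peaks. There were 280 sites in 14342 nt, or 19.5 per kb (95% exact Poisson interval 17.3 to 21.9). The parts of the same transcripts outside any peak assigned to their gene had 22.6 per kb (21.6 to 23.5), a ratio of 0.865. Stretches that only a peak assigned to another gene covered were counted as outside. For all placed peaks the densities were 20.3 inside and 20.3 outside. The shorter motif GGAC, which overlaps DRACH wherever A, C or T follows, had 4.04 per kb inside (3.07 to 5.23) and 4.30 outside (3.89 to 4.73). Neither motif was thus denser in the peaks of interferon response genes than in the remainder of their transcripts.

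At least 1 DRACH site was present in 57 of 59 placed peaks (96.6%), and on average 93.2% of all windows of the same length on the same transcript held such a site. The exceptions were the 3′-most Ifih1 peak and the Ifitm2 peak. GGAC was present in 31 of 59 peaks (52.5%), beside 57.1% of windows. The most frequent sites in the peaks were AGACA and GGACA with 24 each, and GGACT occurred 20 times. A match describes the sequence and does not show that the site is methylated.

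Further genes of the pathway were counted from a separate list of 62. Interferon receptors and their kinases had a peak in 8 of 8 genes and a strong one in 0, and each of the 8 had a peak with a p-value under 0.001. The most significant peaks were those of Jak1 (log10 p -111), Ifngr1 (log10 p -41.9) and Ifnar2 (log10 p -39.2), the first a kinase of both interferon receptors and the others receptor chains. Further nucleic acid sensors (Toll-like receptors and cGAS) and the adaptors and kinases downstream of sensors had a peak in 10 of 12 genes and a strong one in 0. The highest fold enrichment among them was 4.93, just under the threshold. In significance they were led by the adaptor Traf6 (log10 p -13.7), the RNA receptor Tlr7 (log10 p -11.9) and the kinase Ikbke (log10 p -10.9).

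Further interferon-stimulated genes had an assigned peak in 35 of 42, beside 46.3% of all annotated genes with a protein-coding transcript, and a strong one in 7. The 35 include Irgm2, whose 4 peaks lay on exons of Igtp and were counted by position for Igtp above. The most significant peaks were at Epsti1 (log10 p -45.4), Ifi203 (log10 p -41.1) and Lgals3bp (log10 p -28.3). Groups with 0 strong peaks were thus the receptors and their kinases, the further sensors and adaptors and the transcription factors. The 2-5A synthetases and the PARP and DTX3L genes, with 3 genes each, also had 0. Of the markers, 0 strong peaks were found in 8 NK cell genes and in 5 myeloid or dendritic cell genes. Among all genes with a protein-coding transcript and a peak, 43.4% had a strong one. Differences between groups were not tested.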

How the data were processed

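MeRIP-seq of splenic NK cells comprised 2 m6A immunoprecipitates and 2 inputs. The authors trimmed the reads, mapped these to GRCm38 with HISAT2, called peaks with exomePeak and annotated them with ChIPseeker. The deposited fold enrichment is a ratio of IP to input, and the deposited significance is a score, the unadjusted log10 of the peak-calling p-value. The way in which the peak caller combined replicates is not given in the sources used here. Of 20751 rows, 24 repeats were dropped. 0 columns held a value per sample, so total reads per library are unknown, the planned edgeR test of counts was not run, and intervals cover counting error only.

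Peaks were placed on the longest protein-coding transcript of GENCODE M21 (GRCm38), from which sequences were taken. Placement and motif counts were tested on simulated data. Python 3.11.15, pandas 2.3.3 and scipy 1.17.1 were used. The members and the lists were chosen with earlier results of these data known, so no set test was made. Full values are given for the gene with the highest fold enrichment and that with the most significant peak of each role group and for the members with the most peaks. The other members are given by name with fold enrichment, and at most 3 genes of each further list are named. Gm45717, Gm43068, Cd79a, Cd79b, Cd3d, Cd3e, Cd3g, Chrnb2, Irgm2, Tnpo3, Bcl2l12, Dhx58os and Ifit3b, the strong peaks of Ifih1, Dhx58, Xaf1 and Usp18 and the sites of Adar and Igtp were chosen after their values were seen. Alternatives changed the thresholds, the gene assignment, the region, the transcript, the window and the motif. The B cell marker list is not reported in full here.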

Additional observations from a re-analysis of the deposited data

How the results depend on the processing

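Of 30 alternatives to 7 results, 20 stayed within the limits set (1.5 times for a count, the 95% interval for other values) and 10 moved. The fold threshold moved the counts most. At a fold enrichment of at least 2 there were 26 peaks (39.4%, beside 63.9% of all peaks and 60.3% of peaks of genes with a protein-coding transcript) in 21 members. At one of at least 5 there were 10 peaks (15.2%, beside 34.6% and 29.5%) in 9. With strong set at 3 or 10 the members with a strong peak were 14 or 3. The share of all genes with a peak was not computed at 2, 3 or 10, so these member counts have no background. The 3′ UTR share was 79.5% by the centre of the genomic span, the share near the stop codon 44.1% with a window of 400 nt, the median fold enrichment 2.17 for the strongest peak of each gene and the motif density 4.04 per kb for GGAC. A wider window, a maximum per gene and a shorter motif change these values by construction. The genomic span placed only peaks whose midpoint lay in an exon of the transcript. It gave 35 of 44 peaks in the 3′ UTR, in place of 37 of 59. How far the smaller set accounts for the higher share was not tested, and the share of all peaks by that placement was not computed. Peaks over exons of a member whatever gene they are assigned to, an alternative added after seeing the data, gave 77 peaks in 41 members. No share of all genes was computed by that rule. No paired analysis was possible because the list gives no value per sample, and for the same reason leaving out each replicate and the fits on counts were not run.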
